A study of Mus musculus with 12 samples.

Results

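The change of gene expression in MEF cells that stably expressed mutant IDH2 was compared, gene by gene, with the change in MEF cells given 2-HG for 24 h. For each gene the contrast is the mean log2(RPM + 1) of 2MUT minus that of Control, less the mean of 2-HG(+) minus that of 2-HG(-), where RPM is the number of reads a gene received out of every 1000000 in its library. A positive contrast therefore marks a gene whose change was more upward in 2MUT than with 2-HG. The genes are those named once in the tables of both experiments whose mean reached 1 RPM in each table, 9594 of the 20418 names listed once in both. Each change was taken within its own table, and levels were not compared between the tables. Unless a fold is named, changes and contrasts are on the log2(RPM + 1) scale, and where a pair of changes is given the 2MUT change comes first.

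MEF cells are fibroblasts isolated from mouse embryos, here of the strain C57BL/6 and immortalized spontaneously by passage. Control cells carried the empty retroviral vector, and 2MUT cells carried the same vector with a cancer-associated mutant of human IDH2 tagged with FLAG. Both lines were selected with puromycin, and whether a line was 1 clone or a pool was not given. In the other experiment, MEF cells, for which no vector was named, were cultured for 24 h with 300 μM of a membrane-permeant ester of (R)-2-HG, 2-HG(+), or without it, 2-HG(-). According to the sample labels the 2-HG(-) cells received the solvent DMSO, whereas the paper's text calls them non-treated. Each group had 3 libraries, and the methods state that experiments were done in triplicate but not whether the libraries came from separate cultures, so the p-values measure the spread between these libraries, which may be technical. No library of cells with wild-type IDH2 was among the samples. Agent, duration, vector, selection and experiment all differ between the comparisons and cannot be told apart in the contrast.

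The libraries held between 6472439 and 7313602 reads on genes in the 2MUT and Control table and between 14959318 and 18363768 in the 2-HG table, so that changes with 2-HG rest on more reads. Between 96.6% and 97.6% of the RPM of a library fell on the 9594 genes. Of 7 fibroblast markers listed in both tables, 6 were above 1 RPM in each of the 12 libraries, and Fap was below it. Their summed level was between 10800 and 11900 RPM in Control and between 7510 and 8120 RPM in 2MUT, and between 19700 and 21200 RPM in 2-HG(-) and between 13500 and 14800 RPM in 2-HG(+). The sum was thus lower in the treated libraries of both experiments, and it contains Col1a1 and Col1a2. Its part in the results was not tested. The 6 epithelial markers were all below 1 RPM in every library, and the endothelial and muscle lists summed to at most 2.94 and 3.46 RPM. The 4 haematopoietic markers summed to between 7.16 and 15.1 RPM, with 1 or 2 of them above 1 RPM in each library and Ptprc at or near 0. The 3 neural markers summed to between 5.29 and 14.9 RPM, with 1 of them above 1 RPM and Snap25 at 0. Mouse Idh2 had 70.9, 80.8 and 80.1 RPM in Control, 42.6, 51.1 and 55.2 RPM in 2MUT, 186, 184 and 160.1 RPM in 2-HG(-) and 217, 254 and 244 RPM in 2-HG(+). The tables list mouse genes, and whether reads from the human transgene enter this value was not tested.

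Mutant IDH enzymes convert 2-oxoglutarate to 2-HG, which resembles it and can inhibit dioxygenases that use it. Among these are the TET and JmjC demethylases and the prolyl hydroxylases of HIF and collagen. For the HIF hydroxylases the paper cites reports both of inhibition and of stimulation by 2-HG. In a cell line the mutant protein acts continuously over many divisions, whereas an esterified 2-HG enters cells within hours and is cleaved to the free acid. Fibroblasts respond to such stresses through a few well known programs, among them the cell cycle, the tonic interferon response, amino acid supply under ATF4, and the production of matrix. The contrast asks which of these programs moved alike and which moved apart in the 2 experiments.

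The changes differed for a large part of the genes. At an adjusted p-value under 0.05 the contrast was called for 3780 genes, 39.4% of those tested, with 1909 (19.9%) more upward in 2MUT and 1871 (19.5%) more downward. As background, 1748 genes (18.2%) were higher and 1799 (18.8%) lower in 2MUT than in Control, and 1428 (14.9%) were higher and 1482 (15.4%) lower with 2-HG. Both changes were called for 1389 genes. Of these, 155 (1.62%) were higher in both, 304 (3.17%) were lower in both, 411 (4.28%) were higher in 2MUT and lower with 2-HG, and 519 (5.41%) were lower in 2MUT and higher with 2-HG. Genes called in both thus went in opposite directions in 930 cases and in the same direction in 459. Across the 9594 genes the changes had a Pearson correlation of -0.13 and a Spearman correlation of -0.16, given as a description, since genes are not independent replicates.

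Among the 3780 called contrasts, 930 belonged to genes with opposite changes, 1422 to genes called in 2MUT alone, 1007 to genes called with 2-HG alone and 294 to genes called in neither. The remaining 127 had changes in the same direction but of different size. For the other 332 of the 459 genes changed in the same direction, no difference in size was detected. The absolute contrast was at least 1 for 1566 of the called genes and at least 2 for 302, of which 124 were more upward and 178 more downward in 2MUT. The median of the contrast over all 9594 genes was 0.05.

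**Figure D1:**
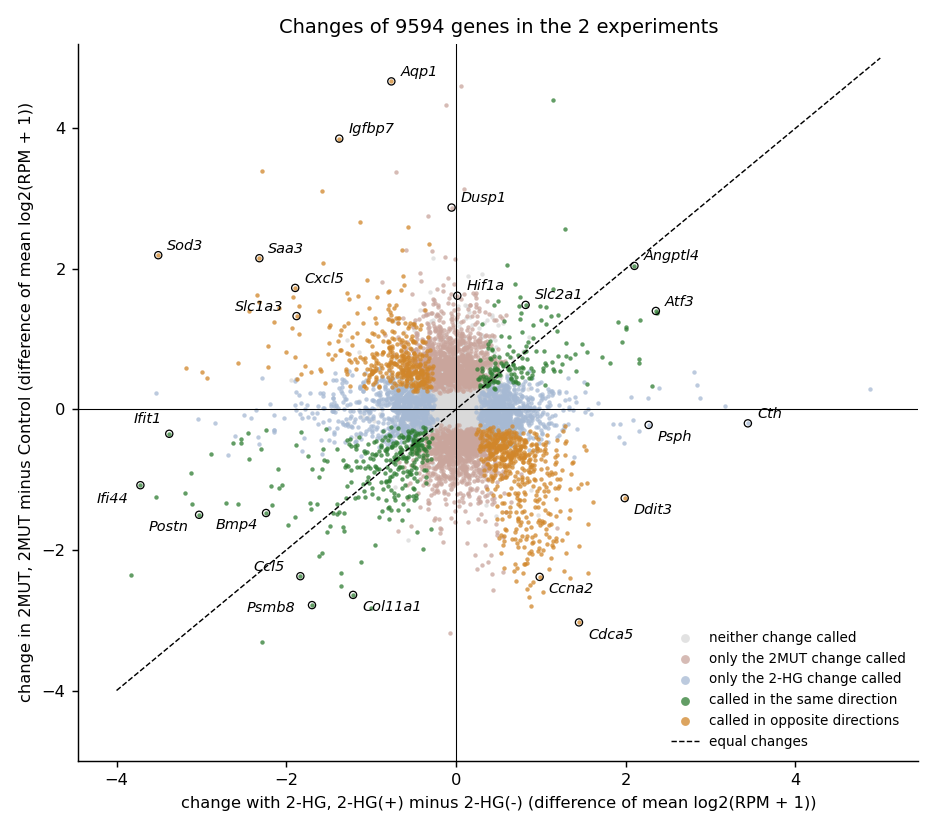
Change with 2-HG (x axis) against change in 2MUT (y axis), both as differences of mean log2(RPM + 1), for the 9594 genes, coloured by which changes passed the threshold, with the dashed line marking equal changes. Orange points, the 930 genes changed in opposite directions, fill the upper left and lower right, and green points, the 459 changed in the same direction, lie in the other quadrants. Sod3 lies to the upper left at -3.51 and 2.19, and Cdca5 lies to the lower right at 1.45 and -3.03.

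Among the genes named by a fixed rule, the contrast was largest for Sod3 (chr5:52363804-52369738, GRCm38.p6), which encodes the secreted superoxide dismutase. It had 49.4, 60.7 and 56.1 RPM in Control, 282, 263 and 226 RPM in 2MUT, 183, 166 and 178 RPM in 2-HG(-) and 15.4, 13.6 and 14.5 RPM in 2-HG(+). It rose 4.65-fold in 2MUT and fell 12.1-fold with 2-HG. The rule named only genes whose treated and control libraries did not overlap in each called comparison. For genes named by it, a lack of overlap therefore restates the selection. The log2 changes were 2.19 ± 0.11 and -3.51 ± 0.11 (± standard error of the limma fit), and the contrast was 5.70 ± 0.16 (adjusted p = 4.4e-11). The water channel gene Aqp1 (chr6:55336299-55348555) had 24.1, 39.2 and 33.5 RPM in Control, 826, 869 and 793 RPM in 2MUT, 98.2, 76.6 and 93.4 RPM in 2-HG(-) and 47.5, 53.8 and 55.1 RPM in 2-HG(+). Here most of the contrast of 5.43 ± 0.21 (adjusted p = 1.8e-09) came from the 2MUT libraries, which lay 25.7-fold above Control, while the fall with 2-HG was 1.71-fold. Igfbp7, a secreted protein that binds insulin-like growth factors, had 63.2, 73.8 and 90.0 RPM in Control, 1153, 1142 and 998 RPM in 2MUT, 272, 229.9 and 239 RPM in 2-HG(-) and 82.6, 97.5 and 104 RPM in 2-HG(+). It too rose in 2MUT and fell with 2-HG, with changes of 3.85 ± 0.13 and -1.38 ± 0.13.

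Saa3, an acute phase protein that fibroblasts secrete, rose 4.46-fold in 2MUT and fell 5.19-fold with 2-HG (contrast 4.47 ± 0.23, adjusted p = 1.3e-08). Sfrp1, a secreted inhibitor of Wnt ligands, went from between 29.3 and 46.9 RPM in Control to between 103 and 111 RPM in 2MUT. With 2-HG it went from between 18.1 and 20.3 RPM to between 2.31 and 3.92 RPM, so that its changes of 1.53 and -2.32 were again opposite. Agt, the precursor of angiotensin, had a smaller rise in 2MUT of 0.58 (adjusted p = 0.028) and fell by 3.18 with 2-HG. Tnfrsf23, a decoy receptor for TRAIL, rose from 9.62, 8.55 and 6.43 RPM to 182, 191 and 176 RPM in 2MUT. Its libraries overlapped between 2-HG(-) and 2-HG(+), with a change of -0.12 (adjusted p = 0.52), and its reads could have been split with its near copy Tnfrsf22.

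Timp2, an inhibitor of matrix metalloproteinases, had 118, 114 and 142 RPM in Control and 3013, 294 and 2490.1 RPM in 2MUT. The 2MUT replicate 2 library lay far below the other two. The contrast of 4.08 ± 0.86 (adjusted p = 0.002) became 5.15 without it and 3.48 without 2MUT replicate 1. With 2-HG its libraries overlapped (-0.70, adjusted p = 0.42). The neutrophil chemokine Cxcl5 and the serine protease inhibitor Serpinb1a were among the genes with the largest opposite changes by the smaller of the 2. Cxcl5 had 1032, 1221 and 903 RPM in Control, 3819, 3411 and 3188 RPM in 2MUT, 4605, 4585 and 4216 RPM in 2-HG(-) and 1114, 1256 and 1235 RPM in 2-HG(+). It rose 3.30-fold in 2MUT and fell 3.72-fold with 2-HG, a contrast of 3.62 ± 0.16 (adjusted p = 4.7e-09). Serpinb1a changed by 1.47 ± 0.14 and -1.85 ± 0.14.

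At the other end, the genes with the most negative contrasts were mostly genes of dividing cells. Cdca5 (chr19:6085097-6091773), or sororin, which keeps sister chromatids together, had 34.8, 41.7 and 29.8 RPM in Control, 5.87, 4.98 and 1.10 RPM in 2MUT, 10.2, 14.7 and 10.9 RPM in 2-HG(-) and 37.8, 34.8 and 29.6 RPM in 2-HG(+). It fell 8.90-fold in 2MUT and rose 2.86-fold with 2-HG, with a contrast of -4.48 ± 0.47 (adjusted p = 7.0e-06). Esco2, the cohesin acetyltransferase, changed by -2.40 ± 0.23 and 1.34 ± 0.23. Spc24, a subunit of the kinetochore, changed by -2.67 ± 0.15 and 0.86 ± 0.15, and Iqgap3, a scaffold protein of proliferating cells, by -2.60 ± 0.16 and 1.02 ± 0.16. 2810417H13Rik, named Pclaf in RefSeq and encoding a partner of PCNA, changed by -2.56 ± 0.13 and 0.83 ± 0.13. The linker histone gene Hist1h1a had 66.1, 92.4 and 52.0 RPM in Control, 12.8, 13.0 and 12.5 RPM in 2MUT, 43.0, 30.8 and 44.6 RPM in 2-HG(-) and 97.8, 137 and 117 RPM in 2-HG(+), a contrast of -3.88 ± 0.28 (adjusted p = 2.1e-07). Hist1h2bb behaved alike, with changes of -2.30 and 1.27, but histone genes have near-identical copies between which reads could have been split. The exception among the 8 was Cth (chr3:157894248-157925081), cystathionine gamma-lyase, which makes cysteine. It had 25.2, 28.2 and 23.4 RPM in Control, 23.6, 20.5 and 22.3 RPM in 2MUT, 10.2, 12.3 and 10.8 RPM in 2-HG(-) and 123, 129.6 and 138 RPM in 2-HG(+), so that the libraries overlapped in the 2MUT experiment and were 11.7-fold apart in the other.

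**Figure D2:**
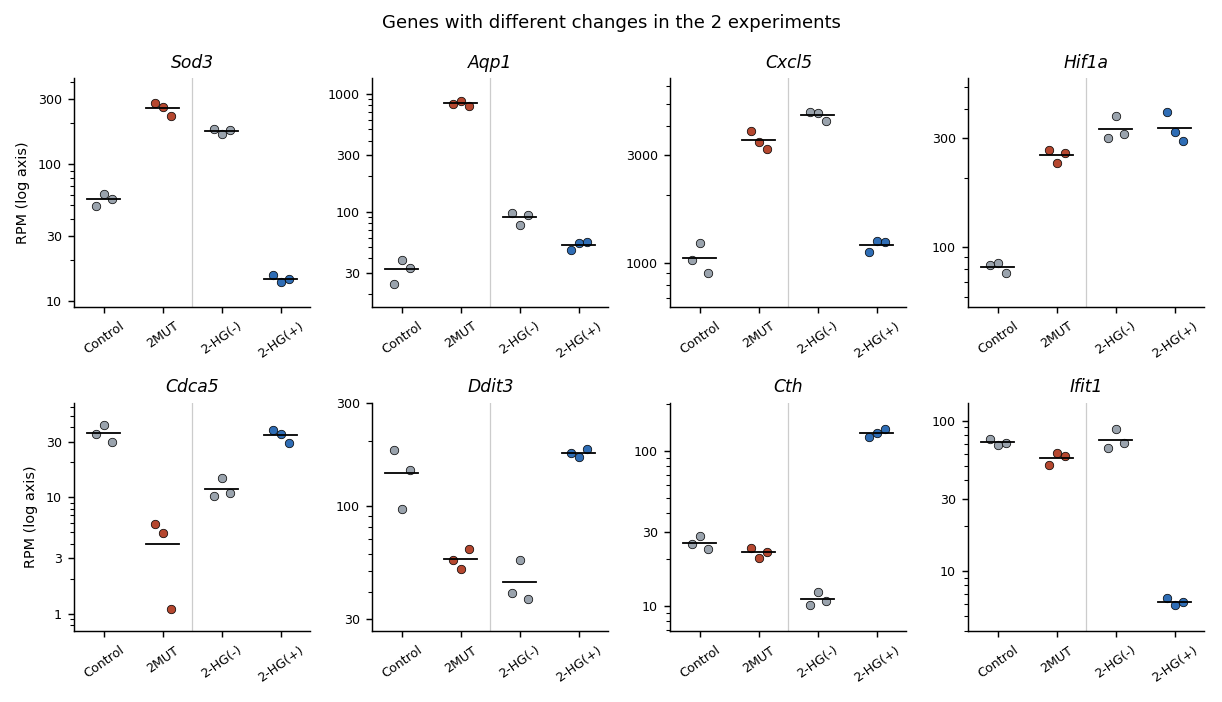
RPM in each library (points, log axis) and group mean (bars) for 8 genes whose changes differed, with the grey line separating the experiments. Sod3 and Cxcl5 rose in 2MUT and fell with 2-HG, Cdca5 and Ddit3 fell in 2MUT and rose with 2-HG, Hif1a moved in 2MUT, Cth moved with 2-HG, and Aqp1 and Ifit1 had 1 change far larger than the other.

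The genes of mitosis, which build the spindle and separate the chromosomes, were the list with the largest divergence by median. All 26 tested members of the 28 listed had a called contrast that was more downward in 2MUT, against 19.5% of all genes. In 2MUT 26 were lower, against 18.8% of all genes. With 2-HG 23 were higher, against 14.9%, and none was lower. The median change was -1.81 in 2MUT and 0.79 with 2-HG. As an average over the list, the 2MUT libraries lay between 1.70 and 1.96 below Control on the log2 scale and the 2-HG(+) libraries between 0.67 and 0.83 above 2-HG(-), while the control libraries stayed within 0.08 of their means. Cyclin A2, Ccna2, which drives S phase and entry into mitosis, had 202, 231 and 148 RPM in Control, 36.6, 41.6 and 29.9 RPM in 2MUT, 171, 178 and 160.5 RPM in 2-HG(-) and 342, 338 and 332 RPM in 2-HG(+). The contrast was -3.37 ± 0.21 (adjusted p = 6.6e-08). Ube2c, which helps to mark cyclins for destruction, changed by -2.43 ± 0.16 and 0.71 ± 0.16, and Aurka, a kinase of the spindle poles, by -1.86 ± 0.13 and 1.25 ± 0.13.

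Many mitotic genes carry near their start the cell cycle homology region, CHR, whose letters TTTGAA were searched on both strands in RefSeq promoters of GRCm38.p6 (250 bases before to 50 bases after each start). They were found in 19 of 24 promoters of the mitosis list (79.2%, 22 of the 26 genes with a promoter), in 11.5% of those of all tested genes and in 17.9% of all promoters of the table. The 120 bases before the start are shown for Cdca5 (chr19:6084977-6085096, + strand) and Ube2c (chr2:164769809-164769928, + strand), chosen among the named mitotic genes because the letters were found there, with the CHR letters, as they read on the strand of the gene, in capitals.
Cdca5: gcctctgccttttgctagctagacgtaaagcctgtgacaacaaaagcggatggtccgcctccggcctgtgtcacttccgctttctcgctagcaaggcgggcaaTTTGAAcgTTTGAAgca
Ube2c: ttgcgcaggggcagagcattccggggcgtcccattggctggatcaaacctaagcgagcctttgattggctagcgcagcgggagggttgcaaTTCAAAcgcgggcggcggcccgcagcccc
In the same window of the named gene Aurka they were not found. A match is a description of the letters and not a measured site. In the DNA replication list the same letters stood in 3 of 22 promoters (13.6%).

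The DNA replication list, which holds the origin licensing factors, the MCM helicase and nucleotide enzymes, diverged in the same direction. Of 26 tested members, 25 had a called contrast, all more downward in 2MUT, against 19.5% of all genes. In 2MUT 21 were lower and with 2-HG 22 were higher, against 18.8% and 14.9% of all genes. Members that did both numbered 19, against 5.41% of all genes. Cdt1, a licensing factor, had 60.5, 69.9 and 67.7 RPM in Control, 11.9, 15.1 and 11.7 RPM in 2MUT, 10.7, 5.35 and 10.9 RPM in 2-HG(-) and 19.6, 20.9 and 18.3 RPM in 2-HG(+), with a contrast of -3.38 ± 0.29 (adjusted p = 1.1e-06). The thymidine kinase gene Tk1 changed by -2.02 ± 0.22 and 0.97 ± 0.22, and Mcm5 by -1.78 ± 0.20 and 1.06 ± 0.20. For Mcm7, 2MUT replicate 3 was far below the others (89.1, 87.8 and 16.6 RPM against 149, 185 and 167 RPM in Control), and its contrast of -2.87 became -2.09 without that library. With 2-HG its groups did not overlap, but the change of 1.19 had an adjusted p = 0.051. Mybl2, a transcription factor of S phase, and Kntc1, of the kinetochore checkpoint, were named for their opposite changes, with -1.63 and 1.56 for Mybl2 and -1.94 and 1.45 for Kntc1. In bulk libraries fewer dividing cells and less RNA per dividing cell cannot be told apart.

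The p53 target list also leaned downward in 2MUT relative to 2-HG, with 10 of 19 contrasts called in that direction and 2 in the other, against 19.5% and 19.9% of all genes. The stress genes Gadd45a and Eda2r moved in opposite directions. Gadd45a had 949, 782 and 925 RPM in Control, 502, 534 and 528 RPM in 2MUT, 114, 124 and 99.9 RPM in 2-HG(-) and 315, 289 and 274 RPM in 2-HG(+), and its contrast was -2.13 ± 0.15 (adjusted p = 1.8e-07). Eda2r, a receptor of the TNF family, changed by -1.52 ± 0.17 and 1.18 ± 0.17. Sesn1 went the other way, with 0.43 in 2MUT and -0.94 with 2-HG. Cdkn1a, the p21 inhibitor of cyclin-dependent kinases, had 5.66, 6.15 and 4.86 RPM in 2-HG(-) and 113, 30.0 and 30.3 RPM in 2-HG(+). The 2-HG(+) replicate 1 library was thus far above the other two, and without it the contrast of -2.72 was -2.09. In the other experiment Cdkn1a overlapped between Control and 2MUT (0.16, adjusted p = 0.77).

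The antiviral interferon-stimulated genes fell with 2-HG far more than in 2MUT. These genes encode RNA sensors and effectors that cells keep at a low tonic level and raise after interferon. All 22 tested members, of 30 listed, were lower with 2-HG, against 15.4% of all genes, with a median change of -2.13. In 2MUT 11 were lower and 3 were higher, against 18.8% and 18.2%, with a median of -0.32. The contrast was called for 21 members (95.5%, against 39.4% of all genes), 20 of them positive. Members lower in both comparisons numbered 11, against 3.17% of all genes. As a list mean the 2-HG(+) libraries lay between 2.06 and 2.20 below 2-HG(-), and the 2MUT libraries between 0.40 and 0.48 below Control.

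Ifit1, which binds foreign RNA caps, had 75.5, 68.4 and 71.0 RPM in Control, 50.4, 60.5 and 57.8 RPM in 2MUT, 65.6, 88.3 and 70.6 RPM in 2-HG(-) and 6.61, 5.89 and 6.21 RPM in 2-HG(+). It fell 12.0-fold with 2-HG (adjusted p = 6.5e-10) and 1.27-fold in 2MUT (adjusted p = 0.044), a contrast of 3.03 ± 0.18 (adjusted p = 4.1e-08). Irf7, the transcription factor that amplifies the response, had 20.1, 23.6 and 23.0 RPM in Control, 19.3, 22.4 and 16.4 RPM in 2MUT, 15.2, 12.8 and 14.6 RPM in 2-HG(-) and 0.926, 1.32 and 1.11 RPM in 2-HG(+). Its libraries overlapped in the 2MUT experiment (-0.20, adjusted p = 0.32), whereas with 2-HG it fell by 2.84 on the log2 scale. Ifi44 and the oligoadenylate synthetase-like gene Oasl2 were lower in both but by different amounts, with -1.08 and -3.72 for Ifi44 and -1.25 and -3.54 for Oasl2. The same held for Zbp1, a sensor of nucleic acids, with -1.35 and -3.12. Apol9b, named among the genes lower in both, fell by 1.36 in 2MUT and by 2.17 with 2-HG, and its reads could have been shared with its near copy Apol9a.

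The interferon-stimulated response element has the core TTTCNNTTT, searched on both strands. The 120 bases before the start of Ifit1 (chr19:34640769-34640888, + strand) and Ifi44 (chr3:151749911-151750030, - strand) are shown because the core was found there, with the core in capitals. In the same window of the named members Irf7 and Oasl2 it was not found.
Ifit1: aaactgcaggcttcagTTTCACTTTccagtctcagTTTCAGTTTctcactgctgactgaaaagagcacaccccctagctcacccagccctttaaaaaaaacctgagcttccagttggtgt
Ifi44: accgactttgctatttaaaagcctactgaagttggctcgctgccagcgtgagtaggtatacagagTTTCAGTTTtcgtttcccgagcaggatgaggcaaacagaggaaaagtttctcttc
Ifit1 held the core in 2 places in this window and Ifi44 in 1 place. Only 15 of the 22 list members had a promoter in the table, so a share over the list is void. In the immunoproteasome list, with 9 of 10 genes matched, 3 of 10 promoters held it (30.0%), against 7.53% for all tested genes and 10.6% for all promoters of the table.

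The immunoproteasome and MHC class I list, which makes and presents peptides to T cells, was lower in both experiments as a median, and its members were split in the contrast. It was called for 5 of 10 (50% against 39.4% of all genes), 3 more upward and 2 more downward in 2MUT, and 2 members changed in opposite directions. All 10 tested members were lower with 2-HG and 7 of them were also lower in 2MUT, against 3.17% of all genes lower in both. The medians were -0.75 in 2MUT and -0.90 with 2-HG, and the list means by library were between -0.71 and -0.84 in 2MUT and between -0.93 and -1.05 in 2-HG(+). Psmb8, a catalytic subunit of the immunoproteasome, had 12.9, 16.4 and 14.5 RPM in Control, 1.08, 1.61 and 1.10 RPM in 2MUT, 11.7, 11.0 and 13.4 RPM in 2-HG(-) and 2.51, 3.67 and 2.94 RPM in 2-HG(+). It fell 11.5-fold in 2MUT and 3.96-fold with 2-HG, the larger fall being in 2MUT (contrast -1.09 ± 0.24, adjusted p = 0.0024). Psmb10 fell by 0.74 and 1.18, with no difference detected (95% interval -0.26 to 1.13). B2m, the light chain of MHC class I, was an exception in the list, since it rose in 2MUT (0.31) and fell with 2-HG (-0.76), as did the peptide trimming enzyme Erap1 (0.51 and -0.99). Tapbp, the peptide loading factor tapasin, overlapped between Control and 2MUT (-0.22) and fell by 1.31 with 2-HG.

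Among 16 tested genes of NF-kB and chemokines, 8 contrasts were more upward in 2MUT and 4 more downward, against 19.9% and 19.5% of all genes. Without 2-HG(-) replicate 2 the first count was 5, and without any other single library it was 6 or 7. Cxcl1 and Cxcl5, which attract neutrophils, diverged. Cxcl1 had 2644, 2581 and 2358 RPM in Control, 9227, 7439.8 and 7576 RPM in 2MUT, 2586, 3402 and 2527 RPM in 2-HG(-) and 1652, 1576 and 1616 RPM in 2-HG(+), so that it rose 3.20-fold in 2MUT and fell 1.76-fold with 2-HG, in the same way as Cxcl5 above. The stromal chemokine Cxcl12 and the monocyte chemokine Ccl7 fell with 2-HG by 1.89 and 1.13 while the 2MUT differences were 0.25 and 0.30, neither of which passed the threshold. The T cell chemokine Ccl5 was lower in both. It had 194, 194 and 208 RPM in Control, 35.4, 40.6 and 36.7 RPM in 2MUT, 946, 982 and 847 RPM in 2-HG(-) and 271, 246 and 258 RPM in 2-HG(+), with changes of -2.37 ± 0.09 and -1.83 ± 0.09 and a contrast of -0.54 ± 0.13 (adjusted p = 0.0047). Nfkbie, an inhibitor of NF-kB, fell by 0.87 and 0.78 with no difference detected (95% interval -0.58 to 0.41).

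Most genes of the stress response, tRNA synthetase and amino acid synthesis lists rose with 2-HG, and most of them did not rise in 2MUT. Under amino acid shortage and other stresses, the kinase GCN2 and its relatives favour translation of ATF4, which raises transporters, biosynthetic enzymes and tRNA synthetases. In the integrated stress response list 11 of 15 genes were higher with 2-HG and 5 in 2MUT, against 14.9% and 18.2% of all genes. Of its contrasts 10 were more downward in 2MUT and 1 more upward, against 19.5% and 19.9%. Ddit3, the factor CHOP, had 182, 96.4 and 147 RPM in Control, 56.2, 51.1 and 62.7 RPM in 2MUT, 39.4, 56.4 and 36.9 RPM in 2-HG(-) and 176, 168 and 183 RPM in 2-HG(+). It fell 2.50-fold in 2MUT and rose 3.97-fold with 2-HG (contrast -3.25 ± 0.28, adjusted p = 1.2e-06). Atf4 itself had 559, 522 and 612 RPM in Control, 644, 677 and 685 RPM in 2MUT, 399, 533 and 358 RPM in 2-HG(-) and 1250.4, 1189 and 1218 RPM in 2-HG(+), a rise of 1.52 with 2-HG beside 0.25 in 2MUT (adjusted p = 0.13). The eIF2 phosphatase subunit Ppp1r15a rose with 2-HG (1.16) and overlapped between Control and 2MUT (-0.08).

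A few members of the stress list rose in both. Chac1, which degrades glutathione, rose by 0.66 in 2MUT and 2.16 with 2-HG, the latter being larger (contrast -1.50 ± 0.27, adjusted p = 6.3e-04). Atf3, a repressor induced by ATF4, had 9.03, 7.26 and 9.98 RPM in Control, 21.5, 28.4 and 24.4 RPM in 2MUT, 6.10, 6.75 and 6.12 RPM in 2-HG(-) and 30.7, 39.0 and 40.5 RPM in 2-HG(+). Its rises were 1.40 ± 0.16 and 2.36 ± 0.16, with a contrast of -0.95 ± 0.22 (adjusted p = 0.0038). For Sesn2, an inhibitor of mTORC1, the rises of 1.20 and 0.91 were not found to differ (95% interval -0.39 to 0.97).

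All 20 cytosolic aminoacyl-tRNA synthetase genes, whose products load tRNAs with amino acids, were tested. With 2-HG 19 were higher, against 14.9% of all genes. In 2MUT 10 were lower and 1 was higher, against 18.8% and 18.2%. The contrast was more downward in 2MUT for 18, against 19.5% of all genes, with a median of -1.03. Aars, for alanine, had 1991, 1578 and 1721 RPM in Control, 1181, 1091 and 1263 RPM in 2MUT, 495, 635 and 615 RPM in 2-HG(-) and 1918, 1718 and 1408 RPM in 2-HG(+), so that it fell 1.50-fold in 2MUT and rose 2.89-fold with 2-HG. Sars, for serine, changed by -0.89 ± 0.12 and 1.12 ± 0.12, and Eprs, for glutamate and proline, by -0.58 ± 0.16 and 1.18 ± 0.16. Gars, for glycine, rose by 1.59 with 2-HG and overlapped in the 2MUT experiment (-0.07). Wars, for tryptophan, was the member that rose in both, by 0.55 and 1.15.

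In the list of amino acid and one-carbon synthesis 15 of 17 genes were higher with 2-HG, against 14.9% of all genes. Of its contrasts 14 were more downward and 2 more upward in 2MUT, against 19.5% and 19.9%. The list mean lay between 1.22 and 1.45 above 2-HG(-) in the 2-HG(+) libraries, and between -0.13 and 0.04 of Control in the 2MUT libraries. Psph, the last enzyme of serine synthesis, had 92.6, 93.2 and 79.7 RPM in Control, 75.7, 70.4 and 81.0 RPM in 2MUT, 67.0, 73.2 and 61.2 RPM in 2-HG(-) and 364, 313 and 307 RPM in 2-HG(+). Its libraries overlapped in the 2MUT experiment and were 4.88-fold apart with 2-HG (contrast -2.49 ± 0.15, adjusted p = 6.4e-08). The mitochondrial folate enzymes Shmt2 and Mthfd2 rose by 1.93 and 2.09 with 2-HG and were at -0.39 and -0.15 in 2MUT, with adjusted p-values of 0.12 and 0.37.

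The ATF4 site was searched as TGATGNAA on both strands. It was found in 5 of 18 promoters of the 15 stress response genes (27.8%), in 2.13% of those of all tested genes and in 3.97% of all promoters of the table. The 120 bases before the start were searched in named genes of the stress response, tRNA synthetase and amino acid synthesis lists. The site was found for Atf3, Aars and Gars and not for Ddit3, Chac1, Atf4, Ppp1r15a, Sesn2, Sars, Eprs, Psph, Shmt2 or Mthfd2. They are shown, because the site was found there, for Atf3 (chr1:191183334-191183453, - strand), which rose in both experiments, and for Gars (chr6:55037881-55038000, + strand), which rose with 2-HG, with the site in capitals as it reads on the strand of the gene.
Atf3: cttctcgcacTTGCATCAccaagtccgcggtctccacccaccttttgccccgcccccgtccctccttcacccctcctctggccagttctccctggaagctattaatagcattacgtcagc
Gars: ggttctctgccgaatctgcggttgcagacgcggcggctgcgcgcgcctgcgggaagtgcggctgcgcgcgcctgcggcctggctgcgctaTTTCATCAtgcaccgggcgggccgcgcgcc
For the tRNA synthetase and amino acid synthesis lists under 80% of the genes had a promoter in the table, so a share over those lists is void.

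The amino acid transporters were higher on average in both experiments, with median changes of 0.54 in 2MUT and 0.56 with 2-HG, but single members differed. As a list mean the 2MUT libraries lay between 0.35 and 0.56 above Control and the 2-HG(+) libraries between 0.48 and 0.62 above 2-HG(-). In 2MUT 8 of 13 were higher and 1 lower, against 18.2% and 18.8% of all genes. With 2-HG 7 were higher and 4 lower, against 14.9% and 15.4%. The contrast was called for 11 (84.6%, against 39.4% of all genes), 5 more upward and 6 more downward. Slc1a3, which carries glutamate and aspartate, had 729, 651 and 642 RPM in Control, 1858, 1525 and 1703 RPM in 2MUT, 389, 417 and 444 RPM in 2-HG(-) and 121, 106 and 110.4 RPM in 2-HG(+). It rose 2.52-fold in 2MUT and fell 3.70-fold with 2-HG (contrast 3.21 ± 0.14, adjusted p = 4.0e-09). Slc7a5, a carrier of large neutral amino acids, rose in both but by 0.33 in 2MUT against 2.31 with 2-HG. The arginine carrier Slc7a1 rose with 2-HG (1.93) and was at -0.20 in 2MUT (adjusted p = 0.67). Slc38a2, a carrier of small neutral amino acids, rose in 2MUT by 1.21 and fell with 2-HG by 0.50. The glycine carrier Slc6a9 rose by 0.75 and 1.73, and Slc38a1 by 0.60 and 0.79, the latter pair with no difference detected (95% interval -0.68 to 0.29).

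**Figure D3:**
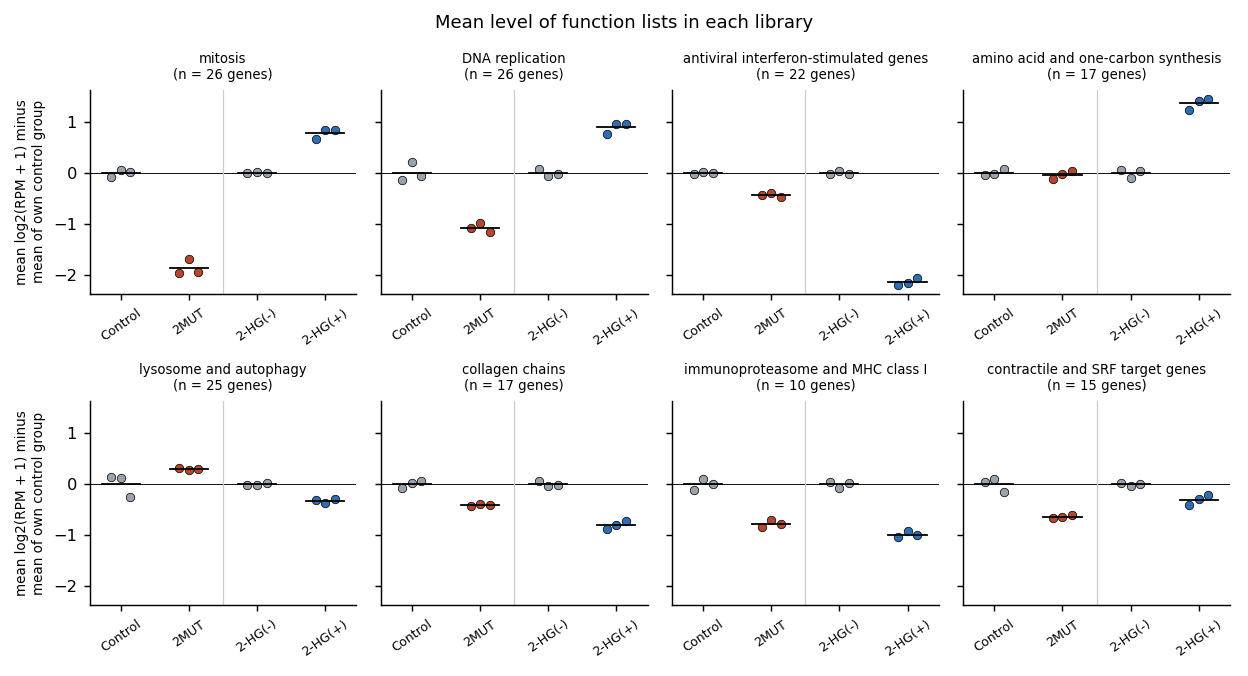
Mean log2(RPM + 1) of 8 function lists in each library (points) after subtracting the mean of the control group of the same experiment, with group means as bars and the grey line separating the experiments. The mitosis and DNA replication lists lie below 0 in 2MUT and above 0 with 2-HG, the antiviral list lies near -2.1 with 2-HG, and the collagen and immunoproteasome lists lie below 0 in both.

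Most of the matrix genes tested fell with 2-HG, and fewer of them fell in 2MUT. Fibroblasts make most of the collagen of connective tissue, and TGF-beta is the main signal that raises it. Of 17 collagen chain genes 15 were lower with 2-HG, against 15.4% of all genes. In 2MUT 7 were lower and 4 were higher, against 18.8% and 18.2%. The contrast was more upward in 2MUT for 9 and more downward for 2, against 19.9% and 19.5%. The 7 lower in both are 7 of 17, against 3.17% of all genes. Col11a1, a chain of a fibrillar collagen, had 209.8, 192 and 194 RPM in Control, 32.6, 28.3 and 32.3 RPM in 2MUT, 142, 169 and 172 RPM in 2-HG(-) and 79.3, 64.3 and 63.5 RPM in 2-HG(+). It fell 6.39-fold in 2MUT and 2.33-fold with 2-HG, more in 2MUT (contrast -1.43 ± 0.16, adjusted p = 1.4e-05). Col3a1, another fibrillar chain, had 145, 156 and 132 RPM in Control, 24.6, 31.9 and 27.4 RPM in 2MUT, 453, 513 and 465 RPM in 2-HG(-) and 199, 171 and 189 RPM in 2-HG(+), and its changes of -2.33 ± 0.11 and -1.35 ± 0.11 differed in the same sense. Others diverged. The basement membrane chain Col4a1 rose in 2MUT (0.67) and fell with 2-HG (-0.52), as did Col8a1 (0.54 and -0.96). Col6a2, of the microfibrils, fell by 1.41 with 2-HG and was at -0.27 in 2MUT (adjusted p = 0.084).

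Of 19 proteoglycan, matricellular and elastic fibre genes 13 were lower with 2-HG and none was higher, against 15.4% and 14.9% of all genes. In 2MUT 7 were higher and 7 lower, against 18.2% and 18.8%. The contrast was more upward in 2MUT for 12 and more downward for none, against 19.9% and 19.5%. Thbs1, thrombospondin 1, which activates latent TGF-beta, had 1582, 1721 and 1962 RPM in Control, 2893, 3042 and 2871 RPM in 2MUT, 639, 583 and 612 RPM in 2-HG(-) and 137, 176 and 181 RPM in 2-HG(+). It rose 1.67-fold in 2MUT and fell 3.72-fold with 2-HG (contrast 2.64 ± 0.16, adjusted p = 5.5e-08). Sparc, a collagen-binding glycoprotein, changed by 0.81 and -0.57, and Fbln5, of elastic fibres, by 1.18 and -0.47. Periostin, Postn, was lower in both. It had 111, 128 and 143 RPM in Control, 49.7, 47.9 and 35.9 RPM in 2MUT, 221, 243 and 233 RPM in 2-HG(-) and 23.4, 27.7 and 32.5 RPM in 2-HG(+), a fall of 2.86-fold and of 8.35-fold, the second being larger (contrast 1.53 ± 0.21, adjusted p = 6.2e-05). Ogn, a small leucine-rich proteoglycan, also fell in both, by 1.08 and 2.18.

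Of 22 TGF-beta and BMP signalling genes 12 contrasts were more upward in 2MUT and 2 more downward (63.6% called, against 39.4%). The receptor genes Tgfbr2 and Tgfbr3 rose in 2MUT and fell with 2-HG, with 0.55 and -0.57 for Tgfbr2 and 0.62 and -0.96 for Tgfbr3. Ltbp2, a latent TGF-beta binding protein, fell by 2.14 with 2-HG and overlapped in the 2MUT experiment (-0.09). The ligand gene Tgfb2 rose in 2MUT by 1.41, with libraries spread between 83.0 and 169 RPM, and overlapped with 2-HG (-0.02). The ligand gene Bmp4, one of the genes the study names, had 168, 183 and 183 RPM in Control, 70.9, 61.9 and 58.1 RPM in 2MUT, 38.4, 29.7 and 35.5 RPM in 2-HG(-) and 5.82, 6.43 and 7.32 RPM in 2-HG(+). It fell 2.80-fold in 2MUT and 5.30-fold with 2-HG, a contrast of 0.76 ± 0.18 (adjusted p = 0.004). Id3, a target of BMP signals, fell by 0.56 and 1.17. Rspo2, which amplifies Wnt signals, fell by 2.09 and 1.61 with no difference detected (95% interval -1.15 to 0.19).

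The contractile genes leaned the other way, with 7 of 15 contrasts more downward in 2MUT and 1 more upward (53.3% called, against 39.4%). Lower in 2MUT were 10 members and lower with 2-HG were 4, against 18.8% and 15.4% of all genes. Smooth muscle actin, Acta2, the marker of myofibroblasts, had 147, 139 and 144 RPM in Control, 37.9, 34.3 and 38.3 RPM in 2MUT, 375, 368 and 401 RPM in 2-HG(-) and 191, 206 and 194 RPM in 2-HG(+). It fell in both, by 1.93 in 2MUT and 0.95 with 2-HG (contrast -0.99 ± 0.12, adjusted p = 2.8e-05). Calponin, Cnn1, fell by 2.07 in 2MUT and was at 0.42 with 2-HG (adjusted p = 0.099). Mylk, the myosin light chain kinase, rose in 2MUT (0.84) and fell with 2-HG (-1.36). Myl9 fell by 1.45 and 0.87, and its contrast of -0.58 ± 0.23 (adjusted p = 0.059) was close to the threshold. Myh10, a nonmuscle myosin heavy chain, fell by 0.83 in 2MUT and was at 0.34 with 2-HG (adjusted p = 0.13), a contrast of -1.17 ± 0.23 (adjusted p = 0.0013). Jup, or plakoglobin, one of the genes the study names, had 71.8, 68.1 and 77.9 RPM in Control, 46.4, 45.4 and 45.8 RPM in 2MUT, 33.6, 32.2 and 30.0 RPM in 2-HG(-) and 15.1, 15.5 and 17.2 RPM in 2-HG(+). It was lower in both with no overlap of groups, by 0.65 and 0.96, and a difference was not detected (95% interval -0.01 to 0.62).

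**Figure D4:**
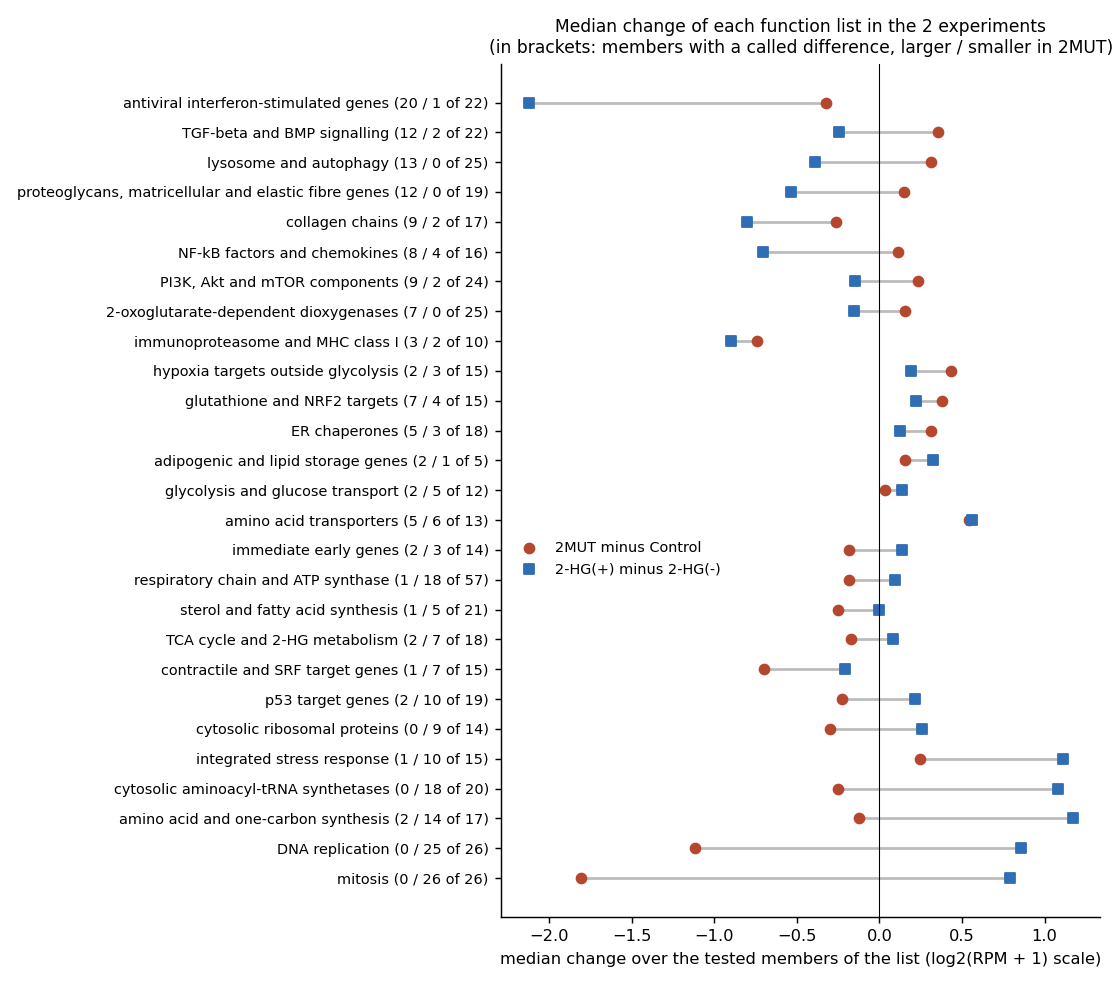
Median change over the tested members of each of 27 function lists in 2MUT (circles) and with 2-HG (squares), ordered by the median contrast, with the number of members whose contrast was called. The symbols are farthest apart for mitosis, DNA replication and the antiviral genes, and closest for the amino acid transporters and the glycolysis list.

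The lysosome and autophagy list diverged mildly, with 13 of 25 contrasts more upward in 2MUT, against 19.9% of all genes, and none more downward, and a median of 0.57. Control replicate 3 stood apart in the list mean, at -0.25 beside 0.14 and 0.11 for the other Control libraries, and without it 14 contrasts were more upward, 1 was more downward and the median was 0.58. In 2MUT 9 were higher, and with 2-HG 11 were lower, against 18.2% and 15.4% of all genes. Hexa, a hexosaminidase, rose by 0.69 and fell by 0.61, and Ctsd, cathepsin D, rose by 0.47 and fell by 0.70. Lamp1, of the lysosomal membrane, had 302, 261 and 235 RPM in Control and 548, 529.8 and 549 RPM in 2MUT, a rise of 2.04-fold, beside -0.18 with 2-HG (adjusted p = 0.19). Gabarapl1, of autophagosomes, fell in both by 0.27 and 0.36 (95% interval -0.18 to 0.36 for the contrast).

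ER chaperones showed 5 contrasts more upward and 3 more downward in 2MUT among 18, near the share over all genes, and the sign of their median contrast of 0.07 turned under 1 of the 25 alternative settings. Without 2-HG(-) replicate 1 the more upward count was 3. Dnajb9 rose in 2MUT by 1.49 and was 0.17 with 2-HG (adjusted p = 0.28). Pdia3, a disulfide isomerase, likewise rose by 0.89 in 2MUT and was -0.28 with 2-HG. Manf, a secreted ER stress protein, went from a fall of 0.24 in 2MUT to a rise of 0.66 with 2-HG, and the stress factor Xbp1 rose by 0.60 with 2-HG and was -0.29 in 2MUT. Herpud1 and Dnajb11 rose in both, by 0.58 and 0.89 for Herpud1 and by 0.59 and 0.30 for Dnajb11, with no difference detected for either.

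Glutathione and NRF2 target genes were called in 11 of 15 contrasts (73.3%, against 39.4% of all genes), 7 more upward and 4 more downward in 2MUT. Nqo1, a quinone reductase induced by NRF2, had 8.88, 10.7 and 13.1 RPM in Control, 36.8, 36.5 and 33.9 RPM in 2MUT, 28.4, 23.3 and 24.6 RPM in 2-HG(-) and 26.1, 30.1 and 25.6 RPM in 2-HG(+). It rose 3.28-fold in 2MUT, and its libraries overlapped in the 2-HG experiment. Gstm1, a glutathione transferase, fell by 1.45 with 2-HG and was 0.21 in 2MUT, and Gpx1, a glutathione peroxidase, changed by 0.38 and -0.45. Gss, glutathione synthetase, fell by 0.59 in 2MUT and was 0.22 with 2-HG. Srxn1 and Gsr, which reduce oxidized peroxiredoxin and glutathione, rose in both. The rises were 0.96 and 0.85 for Srxn1 (95% interval -0.69 to 0.90 for the contrast) and 0.63 and 1.06 for Gsr (95% interval -0.92 to 0.05).

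Of 21 sterol and fatty acid synthesis genes 8 were lower in 2MUT and 1 was higher, against 18.8% and 18.2% of all genes. With 2-HG 2 were higher, against 14.9%. Their contrasts were called in 6 cases (28.6%, against 39.4% of all genes), 5 of them more downward. Srebf2, the factor that drives sterol synthesis, fell in 2MUT by 1.31 and was 0.03 with 2-HG, and the enzyme gene Cyp51 fell by 0.93 in 2MUT and was at 0.02 with 2-HG. Sqle was the member that rose in 2MUT, from 4.74, 6.84 and 4.51 RPM to 22.2, 14.2 and 20.9 RPM. In the 2-HG table it had 278, 259 and 253 RPM in 2-HG(-) and 291, 308 and 306 RPM in 2-HG(+), a difference of 0.20 (adjusted p = 0.40). Of 12 adipogenic and lipid storage genes 5 were tested. The contrast was called for 3 (60%, against 39.4% of all genes), 2 more upward and 1 more downward in 2MUT. Plin2, of lipid droplets, was -0.09 in 2MUT and rose by 0.32 with 2-HG.

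A few of the glucose and hypoxia genes were higher in both experiments. HIF1 raises glucose transporters and glycolytic enzymes when its prolyl hydroxylases, which use 2-oxoglutarate, are inactive. Slc2a1, the glucose transporter GLUT1 (chr4:119108745-119137330), had 228, 262 and 290.4 RPM in Control, 649, 779 and 761 RPM in 2MUT, 78.6, 61.2 and 68.4 RPM in 2-HG(-) and 137, 106 and 127 RPM in 2-HG(+). It rose 2.81-fold in 2MUT and 1.78-fold with 2-HG with no overlap of groups, and the rise was larger in 2MUT (contrast 0.67 ± 0.18, adjusted p = 0.011). The lactate carrier Slc16a1 had 40.4, 40.3 and 48.0 RPM in Control, 71.2, 72.3 and 78.4 RPM in 2MUT, 93.6, 77.7 and 86.2 RPM in 2-HG(-) and 118, 161 and 154 RPM in 2-HG(+). Its rises of 0.78 ± 0.13 and 0.73 ± 0.13 were not found to differ (95% interval -0.35 to 0.43). Of the 12 glycolysis and glucose transport genes, 2 were higher in both and 1 lower in both, against 1.62% and 3.17% of all genes, and 7 contrasts were called (58.3% against 39.4%). Hk1 rose in 2MUT (0.70) and Hk2 with 2-HG (1.08), while Pfkp and Gpi1 fell in 2MUT by 0.59 and 0.79 and were 0.21 and -0.08 with 2-HG. The contrast of Hk1 missed the threshold under 7 of the 25 alternatives.

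Hif1a, the oxygen-regulated subunit of HIF1, was different between the experiments. It had 83.0, 84.3 and 76.6 RPM in Control, 267, 232 and 256 RPM in 2MUT, 299, 373 and 312 RPM in 2-HG(-) and 388, 319.8 and 289.9 RPM in 2-HG(+). In 2MUT it rose 3.10-fold, whereas with 2-HG its libraries overlapped and the change was 0.02 ± 0.12 (contrast 1.60 ± 0.17, adjusted p = 6.6e-06). Among 15 hypoxia targets outside glycolysis 4 were higher in each comparison, against 18.2% of all genes in 2MUT and 14.9% with 2-HG. In 2MUT 1 was lower and with 2-HG 2 were lower, against 18.8% and 15.4%. In both comparisons 3 were higher and 1 was lower, against 1.62% and 3.17%. The contrast was called for 5 (33.3%, against 39.4% of all genes). As a list mean 2-HG(+) replicate 1 stood apart, at 0.46 above 2-HG(-) beside -0.01 and 0.05 for the others, and without it 4 contrasts were more upward in 2MUT in place of 2. Without 2MUT replicate 2 that count was 1. Ero1l, an ER oxidase, rose by 0.81 and 1.55, and Ndrg1, a stress protein, by 0.58 and 1.14, both more with 2-HG. Vegfa rose with 2-HG (0.72) and was -0.18 in 2MUT (adjusted p = 0.28). Kdm3a, a histone demethylase, fell with 2-HG by 0.40 and was 0.27 in 2MUT. The hypoxia element ACGTG, searched on both strands, stood in 12 of 20 promoters of this list (60.0%) and in 10 of 20 of the glycolysis list, against 26.5% for all tested genes and 19.6% for all promoters of the table. The medians of the glycolysis list and the hypoxia list lay near 0 and changed sign under 1 and 3 of the alternatives.

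Of 24 PI3K, Akt and mTOR components 9 contrasts were more upward in 2MUT and 2 more downward, against 19.9% and 19.5% of all genes. None was called in the same direction in both, but over all genes only 1.62% were higher and 3.17% lower in both. Deptor, an inhibitor of mTOR, had 20.4, 18.8 and 31.2 RPM in Control, 59.6, 55.2 and 59.2 RPM in 2MUT, 29.6, 22.1 and 26.3 RPM in 2-HG(-) and 12.5, 15.7 and 18.7 RPM in 2-HG(+). It rose 2.47-fold in 2MUT and fell 1.67-fold with 2-HG (contrast 2.01 ± 0.26, adjusted p = 4.7e-05). Eif4ebp1, a repressor of translation that mTORC1 inactivates, rose 2.95-fold with 2-HG and was at 0.00 in 2MUT (adjusted p = 0.98). Foxo1 changed by 0.65 and -0.59, and the regulatory subunit Pik3r1 fell with 2-HG by 0.64 and was 0.44 in 2MUT. Akt1 overlapped in the 2MUT experiment (553, 532 and 550.2 RPM in Control and 570.1, 527 and 542 RPM in 2MUT) and rose by 0.42 with 2-HG, a contrast of -0.42 ± 0.13 (adjusted p = 0.018). Akt2 lay under the filter in the 2MUT and Control table and was not tested.

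Among 18 genes of the TCA cycle and 2-HG metabolism 9 contrasts were called (50% against 39.4% of all genes), 7 more downward in 2MUT. Of the 5 isocitrate dehydrogenase genes tested, Idh1 had a more upward contrast in 2MUT, Idh2, Idh3a and Idh3b had a more downward one, and that of Idh3g was not called. Idh1, the cytosolic enzyme, rose in 2MUT by 0.64 and was -0.33 with 2-HG (adjusted p = 0.058). Idh2, the mitochondrial enzyme whose values are given above, fell by 0.63 and rose by 0.43, and Idh3a, of the NAD-dependent complex, fell by 0.38 and rose by 0.71. Fh1, fumarase, fell by 0.84 in 2MUT and was 0.17 with 2-HG.

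The 2-oxoglutarate-dependent dioxygenases include enzymes that 2-HG can inhibit. Their genes had called contrasts in 7 of 25 cases, all more upward in 2MUT. Over all genes 19.9% were called in that direction and 39.4% in either. P4ha3, a collagen prolyl hydroxylase, had 36.0, 32.6 and 34.5 RPM in Control, 51.0, 50.5 and 49.8 RPM in 2MUT, 43.4, 43.7 and 42.1 RPM in 2-HG(-) and 11.8, 14.1 and 15.0 RPM in 2-HG(+). It rose 1.47-fold in 2MUT and fell 3.16-fold with 2-HG (contrast 2.14 ± 0.16, adjusted p = 2.7e-07). Plod1, a lysyl hydroxylase, fell with 2-HG by 0.63 and was 0.25 in 2MUT, and Plod2 rose in 2MUT by 0.97 and was 0.28 with 2-HG, though its contrast missed the threshold under 16 of the 25 alternatives. The histone demethylase Kdm5b rose in 2MUT by 0.60 and was -0.22 with 2-HG.

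For the respiratory chain and ATP synthase 18 of 57 contrasts were more downward in 2MUT and 1 more upward, together 33.3% against 39.4% of all genes. In 2MUT 18 members were lower and 4 higher, against 18.8% and 18.2% of all genes. With 2-HG 4 were higher and none was lower, against 14.9% and 15.4%. Uqcrc2, of the cytochrome bc1 complex, and Ndufs4, of complex I, fell in 2MUT by 0.64 and 0.52, and Sdhb fell by 0.31 in 2MUT and rose by 0.39 with 2-HG. Uqcrq rose in both, by 0.46 and 0.78 (95% interval -0.71 to 0.07 for the contrast). Of 76 cytosolic ribosomal protein genes 14 met the rule and were tested. In 9 the contrast was more downward in 2MUT, against 19.5% of all genes. Rps3 had 1715, 2072 and 1978 RPM in Control, 1485, 1527 and 1468 RPM in 2MUT, 999, 811 and 744 RPM in 2-HG(-) and 1024, 1222 and 1257 RPM in 2-HG(+), so that it fell in 2MUT and rose with 2-HG, and Rps14 did likewise, with contrasts of -0.82 and -0.79. For Rpl41 the fall in 2MUT was 0.57, beside 0.17 with 2-HG.

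The immediate early genes had 5 of 14 contrasts called, near the background. Dusp1, a phosphatase that shuts off MAP kinases, had 22.9, 27.6 and 28.0 RPM in Control, 201, 205 and 187 RPM in 2MUT, 49.6, 35.9 and 45.1 RPM in 2-HG(-) and 36.1, 39.5 and 50.5 RPM in 2-HG(+). It rose 7.54-fold in 2MUT, while its libraries overlapped in the 2-HG experiment (contrast 2.92 ± 0.21, adjusted p = 2.0e-07). Myc rose with 2-HG (0.80) and was -0.30 in 2MUT, and Jun fell in 2MUT (-0.35) and rose with 2-HG (0.62). Junb was lower in both, by 1.24 and 0.73. Fosl1 was higher in both, by 0.84 and 0.94, with no difference detected (95% interval -0.56 to 0.36).

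Genes that rose in both experiments were few. Of these 155 genes, 118 had no called contrast, which does not show that their rises were equal. Angptl4 (chr17:33774900-33781575), a secreted inhibitor of lipoprotein lipase that fasting and hypoxia raise, had 30.3, 41.2 and 35.0 RPM in Control, 151, 158 and 136 RPM in 2MUT, 13.9, 18.8 and 16.3 RPM in 2-HG(-) and 60.0, 77.9 and 83.4 RPM in 2-HG(+). It rose 4.18-fold in 2MUT and 4.51-fold with 2-HG, and the contrast was -0.06 ± 0.21 (adjusted p = 0.84) with a 95% interval -0.52 to 0.40. Ier3, an early gene of survival signalling, had 78.1, 108 and 106 RPM in Control, 242, 249 and 238 RPM in 2MUT, 36.4, 28.9 and 29.5 RPM in 2-HG(-) and 87.9, 59.2 and 64.3 RPM in 2-HG(+), with rises of 1.33 ± 0.16 and 1.12 ± 0.16 (95% interval -0.27 to 0.68 for the contrast). Pcgf5, a Polycomb protein, rose by 1.34 and 1.20 (95% interval -0.39 to 0.66). Stmn4, a protein that binds tubulin, rose by 1.28 and 2.17, more with 2-HG, and Gm1045, named Odaph in RefSeq, by 2.57 and 1.29, more in 2MUT. Ptgs2, the cyclooxygenase of prostaglandin synthesis and one of the genes the study names, had 29.9, 30.1 and 35.5 RPM in Control, 112, 83.0 and 102 RPM in 2MUT, 13.1, 14.0 and 14.5 RPM in 2-HG(-) and 20.4, 24.7 and 27.4 RPM in 2-HG(+). It rose 3.10-fold in 2MUT and 1.74-fold with 2-HG, and the contrast of 0.85 ± 0.20 (adjusted p = 0.0043) marked the 2MUT rise as larger.

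**Figure D5:**
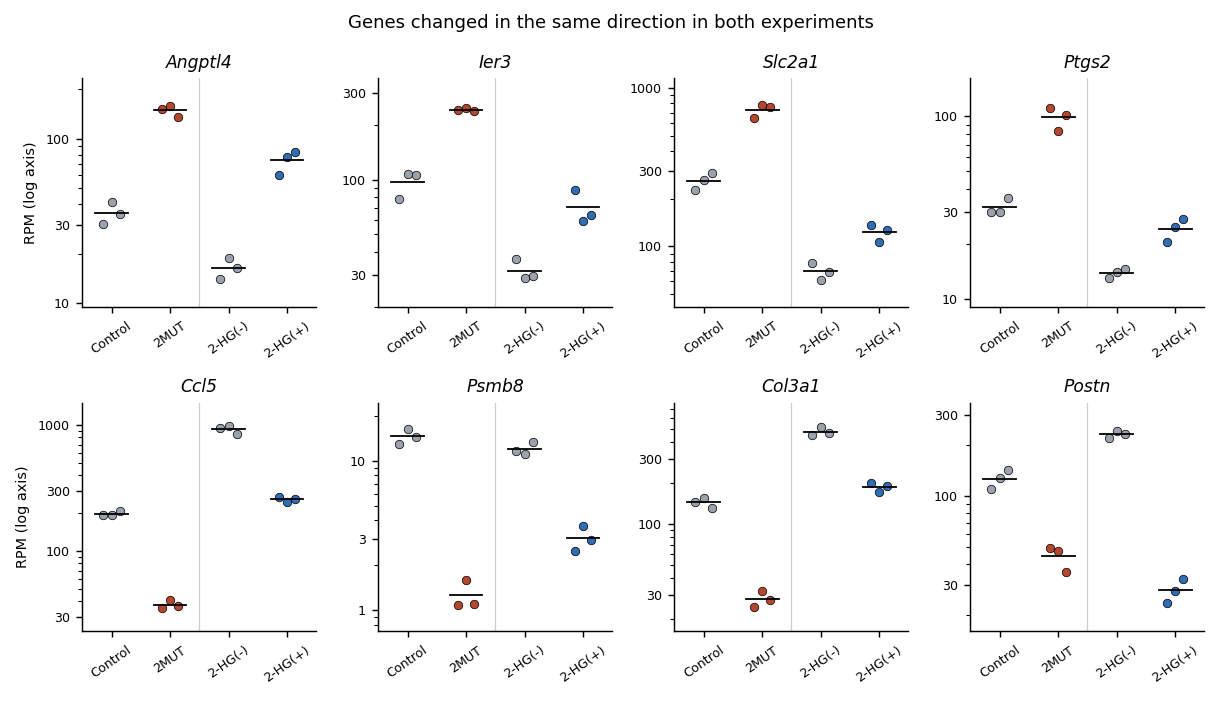
RPM in each library (points, log axis) and group mean (bars) for 8 genes changed in the same direction, with the grey line separating the experiments. Angptl4, Ier3, Slc2a1 and Ptgs2 were higher in 2MUT and with 2-HG, and Ccl5, Psmb8, Col3a1 and Postn were lower in both.

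Of the 304 genes lower in both, 214 had no called contrast, 52 fell less in 2MUT and 38 fell more. The sharing of falls was thus seen in genes of antigen presentation (7 of 10) and of the collagens (7 of 17). It was also seen in proteoglycans and matricellular proteins (6 of 19) and the antiviral list (11 of 22), against 3.17% of all genes. Many of these falls differed in size, namely 2 of the 7, 3 of the 7, 5 of the 6 and 10 of the 11 in that order. No member of the mitosis, DNA replication, tRNA synthetase or amino acid synthesis lists was lower in both, and only Wars was higher in both. The lists were chosen with earlier results of these data known, and their counts are a description.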

How the data were processed

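RNA of the 12 libraries was amplified with the Ion AmpliSeq mouse transcriptome panel. The 2MUT and Control table had 43280 entries and the 2-HG table had 23930, so the experiments were not reported on the same list. The cause of this difference was not tested. The authors deposited RPM values per gene, made with TMAP alignment to the reference of the mouse AmpliSeq transcriptome panel and the AmpliSeqRNA plug-in of the Torrent Suite. All values corresponded to whole reads (100% within 0.1 read), 3 reads being 0.41 to 0.464 RPM in the 2MUT and Control table and 0.163 to 0.201 RPM in the other. These floors cover counting error only.

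The groups were fitted as 4 means to log2(RPM + 1) with limma 3.58.1 (R 4.3.3), with a mean-variance trend and Benjamini-Hochberg adjustment over 9594 genes. The threshold was 0.05, ± denotes the standard error, and 95% intervals of a contrast come from the same fit and cover the spread between libraries. Fold changes are ratios of mean RPM, whereas log2 changes understate low genes. On simulated data for this contrast (9492 genes), 95 of 109 2-fold and 89 of 90 4-fold changes were called, and 5 of 9095 unchanged genes. The simulation gave every gene the same spread beyond counting error and had no outlier libraries. Far fewer genes changed in it than were called in the data, so its rates need not hold for these libraries. Alternatives included edgeR 4.0.16, which called 1925 larger and 1918 smaller contrasts on the recovered reads, and DESeq2 1.42.0, which called 2033 and 2029. pandas 2.3.3, numpy 2.4.6, scipy 1.17.1 and matplotlib 3.10.9 were used.

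Named genes reached 10 RPM on average in the higher group of both tables and, in each called comparison, 3 treated libraries on one side of 3 controls. They were the 8 largest and 8 smallest contrasts, the 5 leading genes of each opposite class and the 6 of each shared class, up to 4 by contrast and 2 shared genes per list, and genes named by the study. The members and lists were chosen with earlier results of these data known. Promoters and positions are RefSeq GRCm38.p6, matched for 7723 of 9594 genes. A few genes that the rule names are not reported here.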

Additional observations from a re-analysis of the deposited data

How the results depend on the processing

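The 6 counts of genes kept within 1.5 times their values under 25 alternative settings. Contrasts more upward in 2MUT numbered between 1341 and 2086 and more downward ones between 1516 and 2029. Genes higher in both numbered between 112 and 206, lower in both between 234 and 337, higher in 2MUT and lower with 2-HG between 308 and 473, and the reverse between 392 and 594. Leaving out 1 library gave 1624 to 1963, 1608 to 1873, 112 to 161, 234 to 304, 310 to 410 and 392 to 503 in the same order. Of the 3780 called contrasts, edgeR also called 3681 and DESeq2 3709 in the same direction, and 1 had the other sign with each tool. Among the 156 named contrasts, none turned direction and 9 missed the threshold under at least 1 setting, among them Plod2 (16 settings) and Hk1 (7). Another 5 that had missed it passed it, Myl9 under 7 settings. Of the 27 list medians, those of the amino acid transporters, adipogenic genes, ER chaperones, glycolysis and hypoxia lists changed sign under 1 to 3 settings each. With 1 library left out, counts of 1 or 2 contrasts more upward in 2MUT moved to between 0 and 2 in the stress response, between 1 and 2 in the amino acid synthesis, immediate early and TCA cycle lists, between 1 and 3 in glycolysis and between 0 and 3 in the respiratory chain, and the 1 more downward adipogenic contrast to between 1 and 2. With a replicate block the 6 counts were 1694, 1651, 114, 249, 321 and 425. Same-numbered libraries correlated at 0.09, 0.03 and 0.03 in the 2MUT experiment and at -0.48, -0.17 and 0.06 in the 2-HG experiment. Differently numbered ones lay between -0.16 and 0.1 in the 2MUT experiment and between -0.43 and 0.5 in the 2-HG experiment. The numbers thus gave no sign of pairing, though some 2-HG(-) and 2-HG(+) libraries with other numbers varied together. The lower depth of the 2MUT and Control table limits low genes there.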
